A study of Caenorhabditis elegans with 12 samples.

Results

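The glutathione transferases and antioxidant enzymes of Caenorhabditis elegans were followed in whole larvae of 2 muscle mutants and of the wild type. The members were all genes whose symbol in the deposited table begins with gst, gsto, gstk, sod, ctl, prdx, trx, trxr, gpx, gcs, gsr or msra, followed by a hyphen and a digit. This rule found 78 of the 23515 genes in the table. They were 49 glutathione transferases (44 gst, 3 gsto and 2 gstk genes), gcs-1 and gsr-1 of glutathione synthesis and recycling, 5 superoxide dismutases, 3 catalases, 3 peroxiredoxins, 5 thioredoxins, 2 thioredoxin reductases, 8 glutathione peroxidases and msra-1. The rule used names alone and no measured value.

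Polyadenylated RNA was sequenced from L3 larvae, raised at 15 °C on plates with E. coli as food, in 12 libraries of 4 per group. The groups were unc-120(st364), labelled strain RW364, fhod-1(tm2363), labelled strain XA8001, and the wild type N2. unc-120 encodes the worm's serum response factor, a transcription factor of muscle, and fhod-1 a formin, which builds actin filaments. The study's title names both in the development of striated muscle. Both alleles are carried by the whole animal, each mutant is represented by 1 strain, and the RNA is that of all tissues together.

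Glutathione transferases join glutathione to reactive, fat-soluble molecules, which makes these easier to export, and several peroxidases draw on the same pool of glutathione. Superoxide dismutases turn superoxide into hydrogen peroxide, and catalases, peroxiredoxins and peroxidases remove that peroxide. In C. elegans the transcription factor SKN-1 switches on many of these genes under oxidative stress, and DAF-16, at the end of insulin signalling, acts on others such as sod-3 and ctl-2.

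The values are those of the authors, read here as a length-scaled share of each library like TPM, on which reading levels can be compared between genes. Every library summed to 638200 such units, the read depth behind them is unknown, and between 19400 and 20472 genes lay above 0 in a library. Libraries of 1 group correlated at 0.977 to 0.998 and libraries of different groups at 0.973 to 0.994, across genes on the log2 scale. unc-120 stood at 25.6 to 43.1 units in the unc-120(st364) libraries and at 9.63 to 15.9 in wild type, higher in all 4 mutant libraries (log2 fold change 1.25, SE 0.18, limma adjusted p = 0.00163). Its level in the fhod-1(tm2363) libraries, 17.4 to 20.3, lay above every wild-type library (limma adjusted p = 0.144) and below every unc-120(st364) library. Between the mutants the limma adjusted p was 0.0424. That value rose above 0.05 without unc-120(st364) replicate 1, 3 or 4 (0.0594, 0.133 and 0.117) and without any 1 fhod-1(tm2363) library (0.0836 to 0.127). The same held without wild-type replicate 2 or 3 (0.0568 and 0.0616) and with every gene above 0 tested (0.074). With a minimum level of 10 it was 0.0537, and with only the groups compared in the fit 0.0520. fhod-1 stood at 3.21 to 6.16 in the fhod-1(tm2363) libraries and at 4.00 to 6.24 in wild type (limma adjusted p = 0.646), so its level over the whole gene does not tell these libraries apart. Another label swaps the strain names of the 2 mutants, and the groups here follow the genotype labels. Nothing in the labels says that the 4 libraries of a group came from separate cultures, so the p-values measure the spread between these libraries, which may be technical.

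Of the 78 members, 68 reached 1 unit in at least 4 of the 12 libraries and were tested together with all other such genes, 12831 in all. The other 10 were gst-17, gst-18, gst-19, gst-25, gst-32, gst-34, gst-44, trx-5, gpx-4 and gpx-8. None of them exceeded 1.26 units in any library, so they are given by level alone, with no test. Apart from gst-44 and gpx-8, these genes averaged 0.0656 to 0.357 units over the 12 libraries and stayed at or below 0.626 in each. gpx-8, a glutathione peroxidase gene, stood at 0.789, 0.747, 0.896 and 1.24 in unc-120(st364) larvae, 0.765, 0.894, 1.13 and 1.26 in fhod-1(tm2363) larvae, and 0.363, 0.625, 0.632 and 0.613 in wild type. The libraries of both mutants lay above all 4 wild-type libraries, at levels close to the limit of testing. A change was called where the adjusted p (Benjamini-Hochberg over all tested genes) of a linear model in limma, fitted to log2(level + 1), was under 0.05. The members' levels spanned the whole range of the larval transcriptome, with msra-1 above 99.1% of the tested genes and trx-1 above 2.35%. The 5 most abundant were msra-1, prdx-2, gst-5, gst-7 and gst-1. Together the 78 genes took 0.628% to 0.768% of the summed level in unc-120(st364), 0.625% to 0.767% in fhod-1(tm2363) and 0.688% to 0.760% in wild type, ranges that overlapped throughout. Their mean summed level was 4462 ± 496 units in unc-120(st364), 4455 ± 470 in fhod-1(tm2363) and 4637 ± 223 in wild type (SD, n = 4 each).

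**Figure D1:**
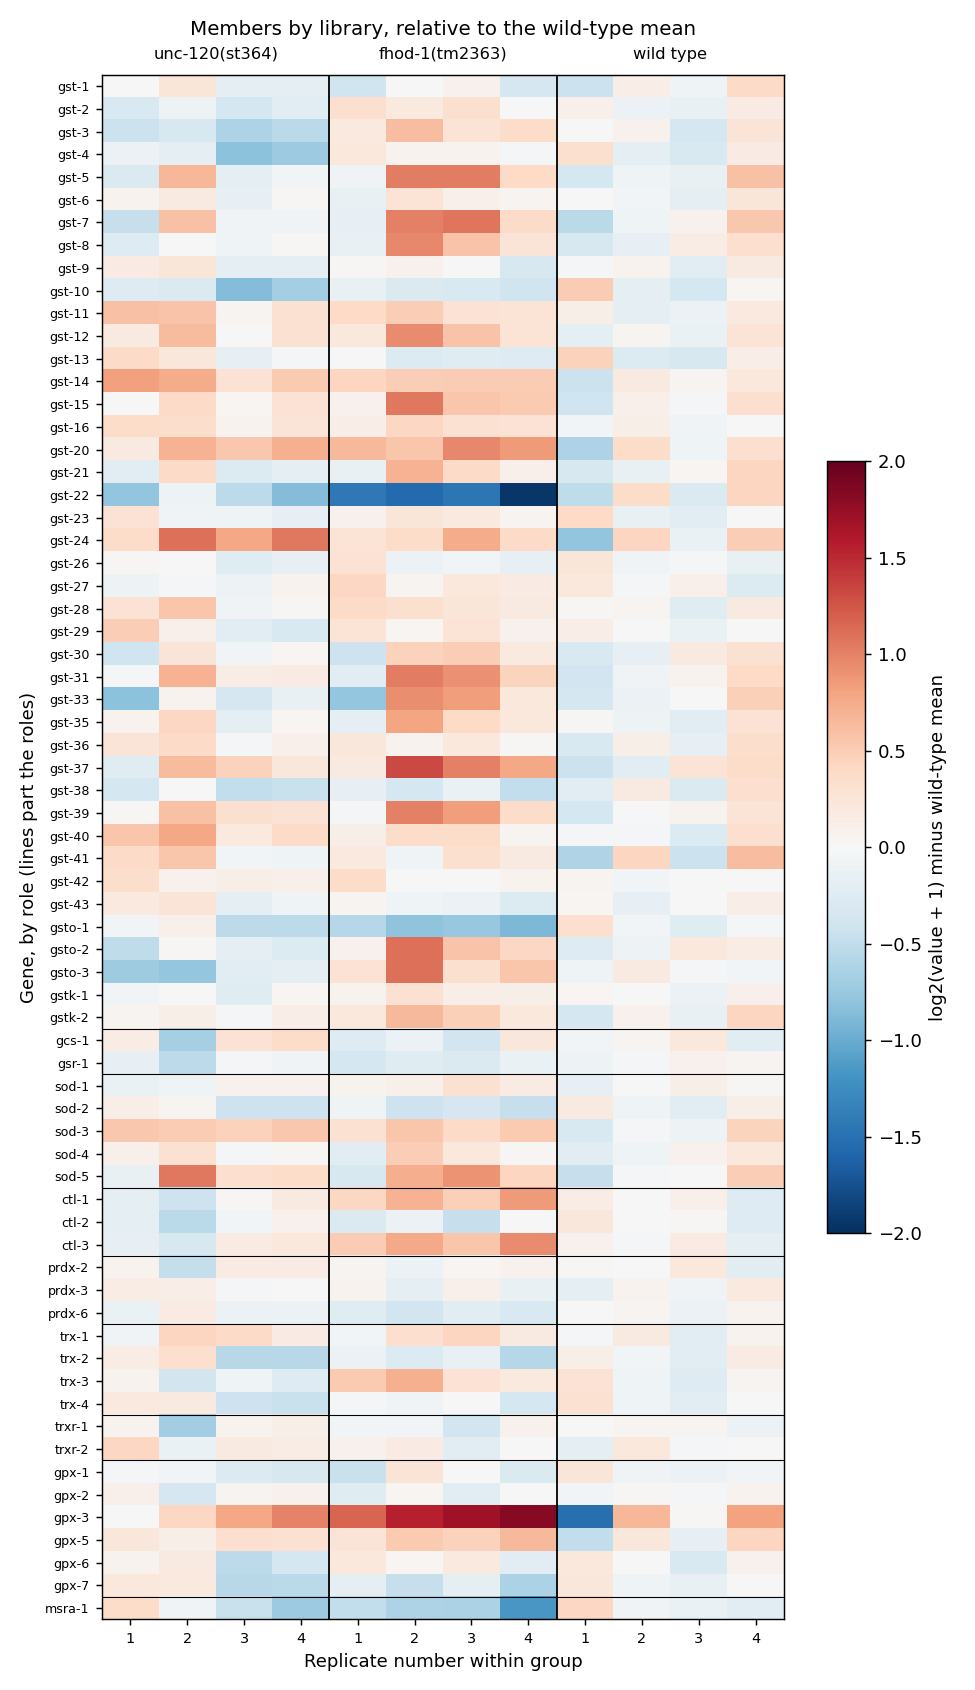
Difference of log2(level + 1) from the wild-type mean for each of the 68 tested members, with genes grouped by role down the page and the libraries of unc-120(st364), fhod-1(tm2363) and wild type across, 4 each. Red is above and blue below the wild-type mean, on a scale cut at -2 and 2. gst-22 is blue in all 4 fhod-1(tm2363) libraries, gpx-3 is red in them, and wild-type replicate 1 is blue for gpx-3.

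The genes share features that the rule did not use. They were short, with a median exonic length of 756.5 bases against 1367 bases over the tested genes, and 64 of the 78 were under 1000 bases. Of the 44 gst genes, 25 lie on chromosome II, and 23 of those stand in 3 clusters. On WBcel235 these run from 4879885 to 4935038 (5 genes, all 5 tested), from 13608154 to 13630887 (9 genes, 6 tested) and from 15163808 to 15185385 (9 genes, 7 tested). Neighbouring copies in such clusters have similar sequences, and how the authors counted reads that fit several copies is not given in the sources used here, so levels of close paralogs are uncertain to that extent. By the positions in the table, 17 members overlap another gene. The median SD of the tested members' log2(level + 1) within groups was 0.24, the same as over all tested genes. gpx-3 (0.68), gst-33 (0.54) and gst-7 (0.49) varied most within groups.

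In unc-120(st364) against wild type no member was called. The limma fit put 0 of 68 members past the threshold, against 1.2% of all tested genes, and 12 of the 68 had an unadjusted p under 0.05, against 8.2% of all tested genes. The groups of 4 libraries did not overlap for 4 members, gst-14, gst-42 and sod-3 higher in the mutant and gsto-3 lower, against 4.21% of all tested genes (2.17% higher and 2.04% lower). Fold changes were above 0 in 32 of 68 members, against 53.8% of all tested genes, and the median log2 fold change was -0.01 over the members and 0.02 over all tested genes. Without wild-type replicate 4, 1 member, sod-3, was called (limma adjusted p = 0.0162), with 1.28% of all tested genes.

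In fhod-1(tm2363) against wild type 5 members changed. The catalase genes ctl-1 and ctl-3 and the glutathione peroxidase gene gpx-3 rose, and the transferase genes gst-22 and gsto-1 fell. This is 5 of 68 members, against 5.23% of all tested genes called in the same limma fit. By direction, 3 members rose against 3.86% of tested genes, and 2 fell against 1.37%. Over all genes the calls were 495 higher and 176 lower, and with quantile normalization 319 higher and 310 lower. The groups did not overlap for 15 members (9 higher, 6 lower), against 15.5% of all tested genes (10.8% higher and 4.7% lower). An unadjusted p under 0.05 was reached by 22 members, against 22.5% of all tested genes. Fold changes were above 0 in 46 of 68 members, against 59.8% of all tested genes, and 33 of these members were among the 42 tested transferases. The median log2 fold change was 0.16 over the members and 0.07 over all tested genes.

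The number of calls fell when some single libraries were left out, and so did the share over all tested genes. It was 1 without fhod-1(tm2363) replicate 2 or 4, where 1.76% and 2.45% of all tested genes were called. It was 2 without fhod-1(tm2363) replicate 3 (2.62% of tested genes) or wild-type replicate 2 (2.53%). It was 3 when wild-type replicate 1 (2.69%) or 3 (2.36%) was left out. Without unc-120(st364) replicate 1 (4.83%) or 3 (4.08%) the number was 4. Leaving out unc-120(st364) replicate 4 (4.84%) or fhod-1(tm2363) replicate 1 (3.93%) kept it at 5. The number rose to 6 without unc-120(st364) replicate 2 (7.68%) and to 7 without wild-type replicate 4 (7.39%). It was 12, with 8 higher and 4 lower, after a correction for gene length, a setting in which 14.2% of the genes were called.

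In unc-120(st364) against fhod-1(tm2363) 5 members were also called, gst-22 higher and ctl-1, ctl-3, gst-3 and gsto-3 lower. This is 5 of 68 members, against 1.97% of all tested genes. By direction, 1 member was higher against 0.46% of tested genes, and 4 were lower against 1.51%. All tested genes gave 59 higher and 194 lower calls, and 94 higher and 168 lower with quantile normalization. The groups did not overlap for 14 members (3 higher, 11 lower), against 8.24% of all tested genes (2.17% higher and 6.07% lower). An unadjusted p under 0.05 was reached by 13 members, against 12.8% of all tested genes. Fold changes were above 0 in 26 of 68 members, against 39.7% of all tested genes. The median log2 fold change was -0.05 over the members and -0.06 over all tested genes. The 3 comparisons share libraries in pairs, so a gene called in more than 1 of them is not called by independent data. The count was 2 without unc-120(st364) replicate 1 (1.48% of all tested genes called) or fhod-1(tm2363) replicate 2, 3 or 4 (1.09%, 1.35% and 1.38%), and 3 without unc-120(st364) replicate 2 (2.21%) or 3 (1.33%). It was 9 after the length correction, against 3.99% of all genes, and 3 with the wild-type libraries left out of the fit (1.87%).

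**Figure D2:**
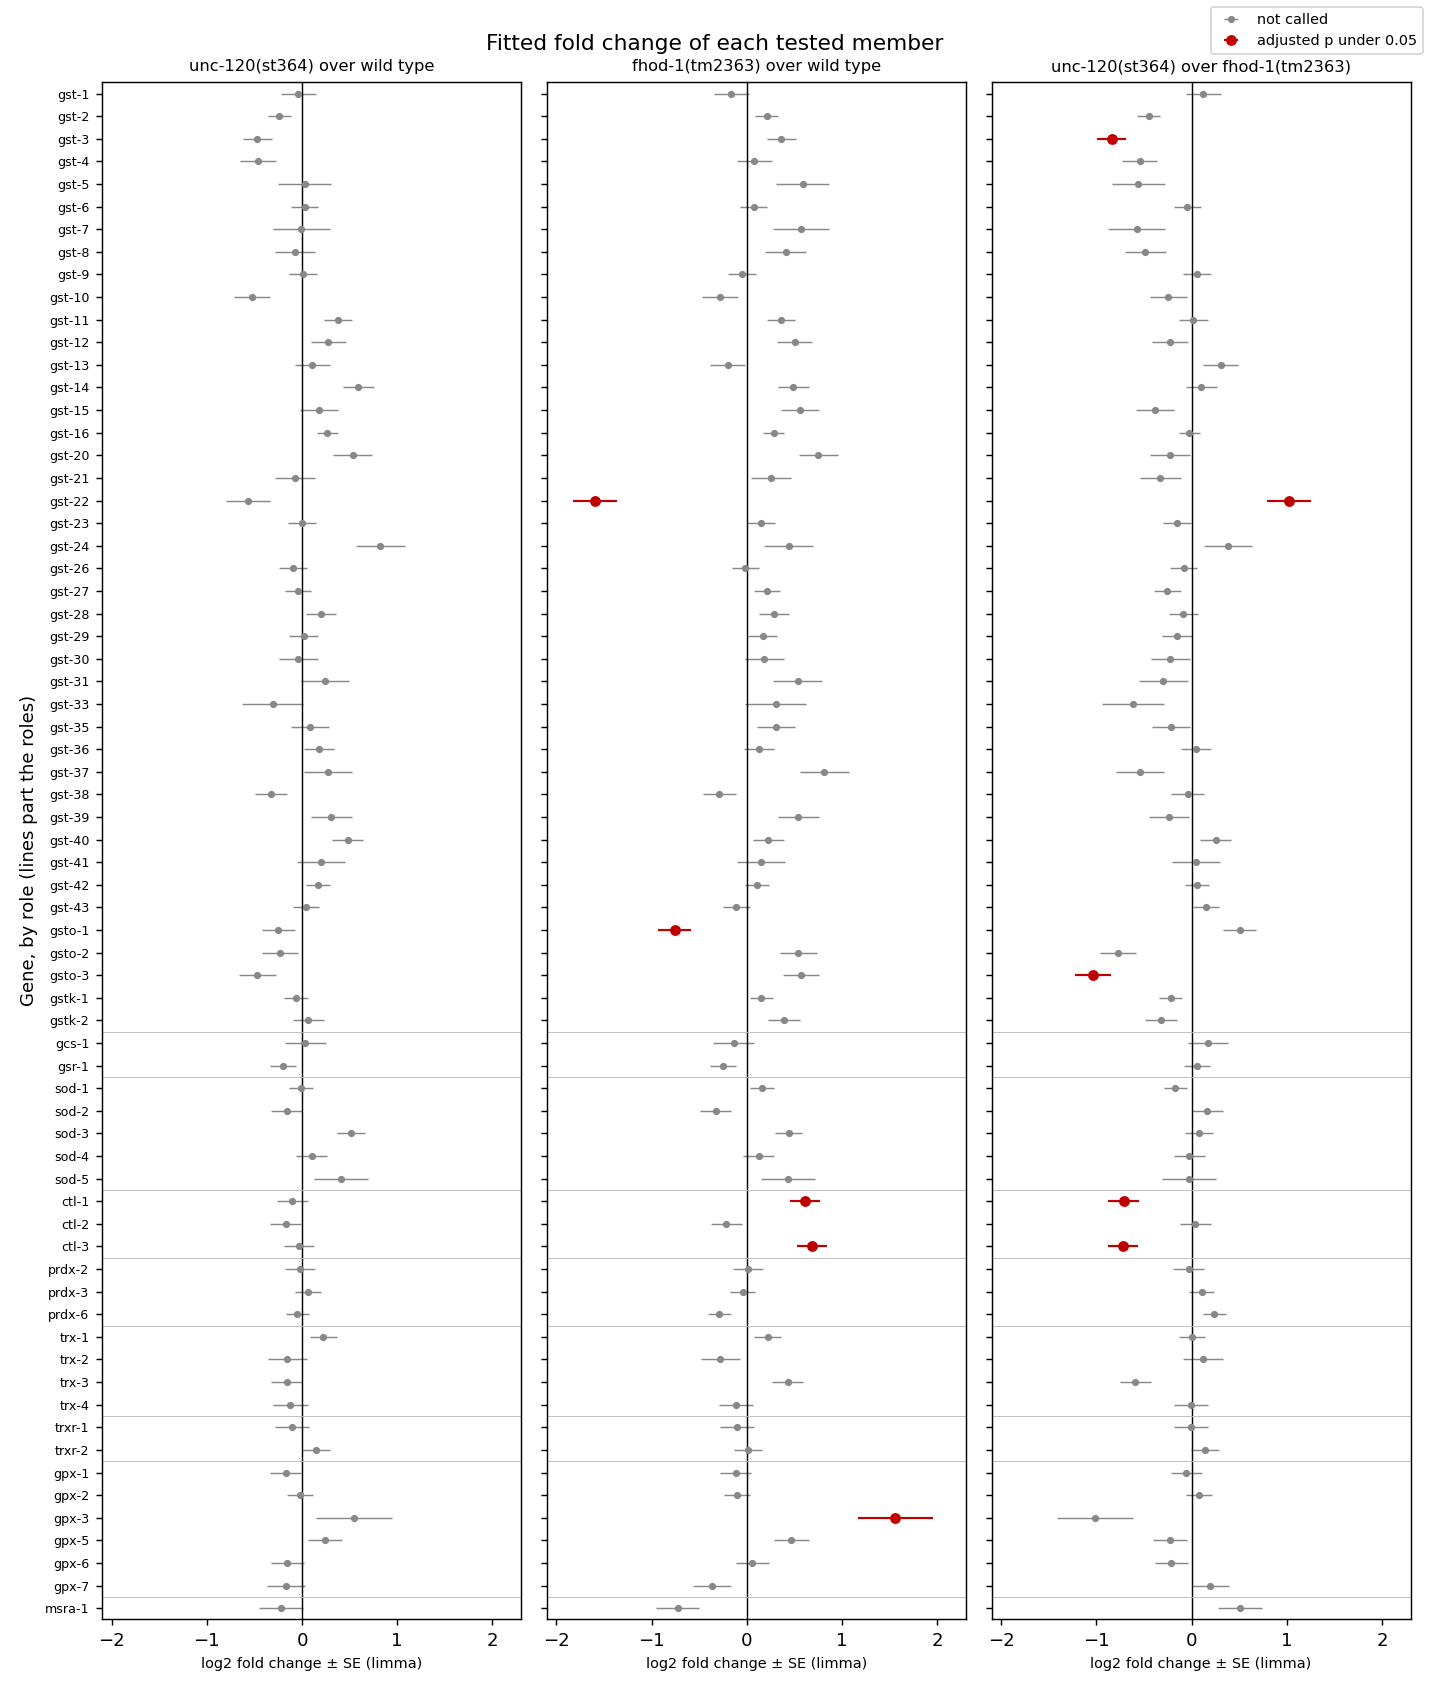
Fitted log2 fold change of each of the 68 tested members, with its standard error from limma as a bar, for each mutant over wild type and for unc-120(st364) over fhod-1(tm2363). Red points have an adjusted p under 0.05: 0 in the left panel, 5 in the middle one and 5 in the right one.

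Among the transferases, gst-22 (chromosome V, 16231032 to 16232317, minus strand) gave the smallest adjusted p in fhod-1(tm2363). Its level was 16.8, 15.2, 16.7 and 11.5 in fhod-1(tm2363) and 32.7, 61.2, 38.1 and 63.5 in wild type. All 4 fhod-1(tm2363) libraries lay below all 4 wild-type libraries. On the log2 scale the fold change was -1.59 (SE 0.23, limma adjusted p = 0.00110), and it was called under all 23 settings tried. The unc-120(st364) libraries, at 26.7, 43.8, 32.4 and 25.2, lay above every fhod-1(tm2363) library and overlapped the wild type. Against fhod-1(tm2363) they were higher by 1.02 (SE 0.23, limma adjusted p = 0.0321), and against wild type the value was -0.57 (adjusted p = 0.453). The call against fhod-1(tm2363) was lost without unc-120(st364) replicate 1, 2 or 3 (adjusted p = 0.0575, 0.0666 and 0.0867) and without any 1 of the fhod-1(tm2363) libraries (0.0569 to 0.112). It was also lost with a pseudocount of 10 (0.0521), with every gene above 0 tested (0.0756), with upper-quartile scaling (0.0719) and with quantile normalization (0.0556). gst-22 overlaps F21H7.12 on the opposite strand, whose log2 fold change was 0.52 in fhod-1(tm2363) against wild type (adjusted p = 0.0558). The libraries came from a stranded kit, and whether strand was used in counting is not given in the sources used here.

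gsto-1 (chromosome III, 7945544 to 7947018, minus strand), an omega-class transferase, fell in fhod-1(tm2363) as well. Its level was 19.9, 16.6, 17.3 and 15.6 in fhod-1(tm2363), 28.8, 32.1, 20.5 and 20.4 in unc-120(st364) larvae and 37.5, 28.7, 25.2 and 29.4 in wild type. The 4 fhod-1(tm2363) libraries were the lowest of the 12. The change against wild type was -0.76 on the log2 scale (SE 0.17, limma adjusted p = 0.0225). It was not called without fhod-1(tm2363) replicate 2, 3 or 4 (adjusted p = 0.0834, 0.0583 and 0.0736) or when wild-type replicate 1 or 2 was left out (0.0723 and 0.0540). It overlaps kle-2 on the opposite strand.

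gst-3 (chromosome IV, 10139380 to 10140285, minus strand) and gsto-3 (chromosome III, 378004 to 381298, minus strand) separated the 2 mutants. gst-3 stood at 4.92, 5.41, 4.20 and 4.49 in unc-120(st364) and at 8.12, 11.2, 8.65 and 9.24 in fhod-1(tm2363), with no overlap, and the wild type at 6.94, 7.45, 5.26 and 8.56 overlapped both mutants. The log2 fold change in unc-120(st364) against fhod-1(tm2363) was -0.84 (SE 0.15, limma adjusted p = 0.00780). gsto-3, another omega-class gene, stood at 1.80, 1.68, 2.96 and 3.00 in unc-120(st364) larvae, 4.58, 8.78, 4.70 and 5.73 in fhod-1(tm2363) and 3.31, 4.20, 3.44 and 3.38 in wild type. The 3 groups did not overlap, with unc-120(st364) lowest and fhod-1(tm2363) highest. Between the mutants the log2 difference was -1.03 (SE 0.19, limma adjusted p = 0.00815). Against wild type it was -0.47 for unc-120(st364) and 0.57 for fhod-1(tm2363) (limma adjusted p = 0.457 and 0.0983), neither called. Both differences between the mutants were called under all 22 settings in which these genes were tested. gsto-3 overlaps gei-4 on the same strand, so strand alone cannot part reads from the shared stretch. gei-4 averaged 3.66 units in unc-120(st364), 4.19 in fhod-1(tm2363) and 3.38 in wild type. Its log2 fold change was 0.23 in fhod-1(tm2363) against wild type and -0.17 between the mutants (limma adjusted p = 0.518 and 0.802). The part of gei-4 reads in the gsto-3 values was not tested.

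**Figure D3:**
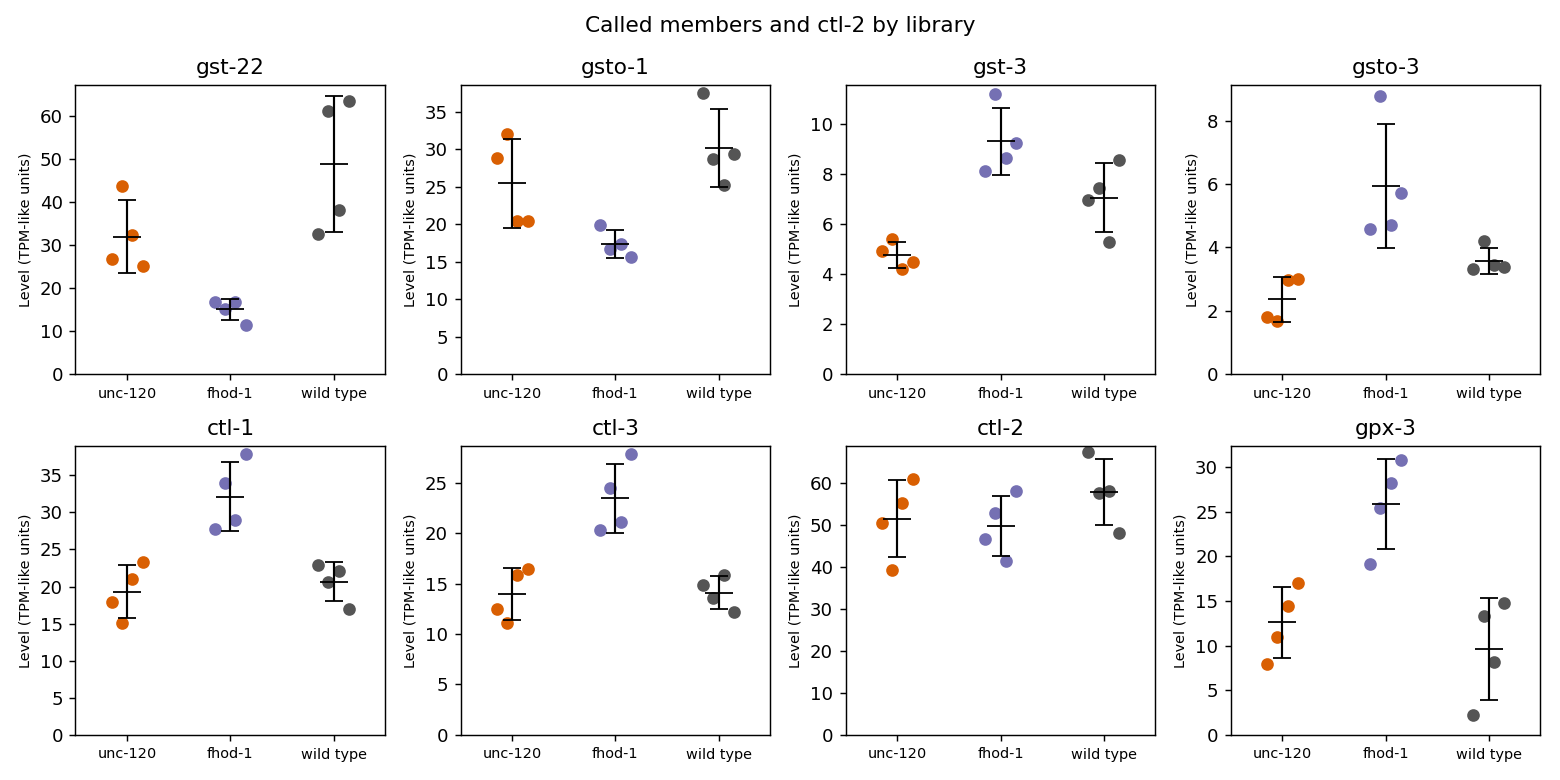
Levels of the 7 members called in any comparison and of ctl-2, in TPM-like units, in unc-120(st364), fhod-1(tm2363) and wild type, 4 libraries each. Points are libraries and bars are the mean and SD. gst-22 and gsto-1 are lowest in fhod-1(tm2363), ctl-1, ctl-3 and gpx-3 are highest there, gst-3 and gsto-3 lie apart between the mutants, and ctl-2 overlaps across the 3 groups.

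The other transferases named for their role or abundance were not called in any comparison. gst-4, a widely used reporter of SKN-1 activity, stood at 27.3, 25.8, 16.4 and 17.5 in unc-120(st364) larvae, 34.4, 31.1, 31.1 and 29.2 in fhod-1(tm2363) larvae, and 37.2, 26.05, 23.7 and 33.5 in wild type. The unc-120(st364) libraries lay below all 4 fhod-1(tm2363) libraries and overlapped the wild type. The log2 fold change was -0.46 for unc-120(st364) and 0.08 for fhod-1(tm2363), each against wild type (limma adjusted p = 0.448 and 0.843). Between the mutants it was -0.54 (adjusted p = 0.195), and 0.0350 after the length correction.

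gst-10, whose enzyme conjugates the lipid aldehyde hydroxynonenal, stood at 32.2, 31.4, 20.96 and 23.7 in unc-120(st364) larvae, 34.999, 31.5, 31.2 and 29.3 in fhod-1(tm2363) larvae, and 55.5, 33.8, 30.3 and 39.9 in wild type. The wild-type libraries reached highest and overlapped both mutants, with -0.53 as the log2 fold change in unc-120(st364) against wild type (SE 0.19, limma adjusted p = 0.341). gst-1, a homologue of the human pi class, was among the most abundant members, at 307, 364, 269 and 269 in unc-120(st364) larvae, 233, 305, 328 and 245 in fhod-1(tm2363) larvae, and 229, 338, 289.6 and 401 in wild type. Its groups overlapped, and its fold changes were -0.04 and -0.16 on the log2 scale in unc-120(st364) and fhod-1(tm2363) against wild type (limma adjusted p = 0.9998 and 0.646).

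gst-5 and gst-7, which lie on chromosome II, were also abundant and varied widely within each group. gst-5 stood at 235.2, 457, 250.4 and 276 in unc-120(st364) larvae, 273, 584, 584 and 378 in fhod-1(tm2363) larvae, and 226, 271, 259.6 and 431 in wild type. gst-7 stood at 197, 410.1, 259.9 and 259.5 in unc-120(st364) larvae, 243, 548, 573 and 356 in fhod-1(tm2363) larvae, and 188, 258, 289 and 396 in wild type. Replicate 1 was the lowest library of every group for both genes, and the groups overlapped. The ratio of gst-7 to gst-5 was narrower than either level, from 0.837 to 1.04 in unc-120(st364) larvae, 0.890 to 0.981 in fhod-1(tm2363) and 0.832 to 1.11 in wild type. Their log2 fold changes in fhod-1(tm2363) against wild type were 0.59 and 0.57, with limma adjusted p = 0.228 and 0.270.

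gst-33, on chromosome V, had a similar spread, at 14.2, 27.2, 20.3 and 23.2 in unc-120(st364) larvae, 14.8, 50.4, 47.1 and 30.02 in fhod-1(tm2363) larvae, and 19.98, 23.8, 25.7 and 36.4 in wild type. Within fhod-1(tm2363) alone its level ran between 14.8 and 50.4, and the groups overlapped. gst-42, the maleylacetoacetate isomerase of tyrosine breakdown, stood at 42.3, 35.3, 35.9 and 35.7 in unc-120(st364) larvae, 42.9, 33.1, 32.7 and 34.8 in fhod-1(tm2363) larvae, and 34.5, 31.7, 32.8 and 33.3 in wild type. The unc-120(st364) libraries lay just above the wild type, without overlap, and the log2 fold change was 0.17 (limma adjusted p = 0.935). gstk-1, of the kappa class, stood at 27.4, 28.3, 23.9 and 29.2 in unc-120(st364) larvae, 29.8, 35.4, 31.2 and 30.8 in fhod-1(tm2363) larvae, and 29.1, 28.3, 26.01 and 30.4 in wild type, with a log2 fold change of -0.22 in unc-120(st364) against fhod-1(tm2363) (limma adjusted p = 0.504). gst-44 stayed at 0.566, 0.808, 0.895 and 0.757 in unc-120(st364) larvae, 0.803, 1.00, 1.03 and 0.941 in fhod-1(tm2363) larvae, and 0.603, 0.620, 0.625 and 0.959 in wild type, too low to be tested.

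Over the 42 tested transferases the median log2 fold change was 0.02 in unc-120(st364) against wild type, 0.24 in fhod-1(tm2363) against wild type and -0.22 in unc-120(st364) against fhod-1(tm2363). The single fold changes ran from -0.57 to 0.82, from -1.59 to 0.81 and from -1.03 to 1.02 in these 3 comparisons. In the first gst cluster of chromosome II the median over 5 tested genes was -0.01, 0.18 and -0.22 in the same order of comparisons, and in the third, over 7 genes, 0.09, 0.29 and -0.22. In the middle cluster, over gst-12, gst-14, gst-15, gst-16, gst-20 and gst-24, it was 0.40, 0.49 and -0.12. All 6 of these genes had fold changes above 0 in each mutant against wild type. Of all tested genes, 53.8% were above 0 for unc-120(st364) and 59.8% for fhod-1(tm2363). None of the 6 was called in the main fit. The smallest limma adjusted p, 0.0516, was that of gst-20 in fhod-1(tm2363) against wild type. There gst-20 was called with a pseudocount of 10, and without unc-120(st364) replicate 2 or wild-type replicate 4. The length correction called gst-12, gst-14 and gst-20 there, and the replicate block gst-15 and gst-20. Block and length correction together also called gst-24 in unc-120(st364) against wild type. The 30 tested transferases not named for a call, role, abundance or spread had mean levels between 1.41 (gst-29) and 140.4 (gst-27). The summed level of all 49 transferases averaged 1903 ± 323 units in unc-120(st364), 2235 ± 415 in fhod-1(tm2363) and 1891 ± 297 in wild type (SD, n = 4 each).

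The genes that make and recycle glutathione were not called. gcs-1 encodes the catalytic subunit of glutamate-cysteine ligase, the rate-limiting step of glutathione synthesis, and is a standard SKN-1 target. It stood at 58.1, 32.6, 63.7 and 67.8 in unc-120(st364) larvae, 43.3, 47.8, 39.6 and 61.1 in fhod-1(tm2363) larvae, and between 45.1 and 60.9 in wild type. The groups overlapped, and unc-120(st364) replicate 2 was the lowest library. gsr-1, the glutathione reductase, stood at 98.03, 76.03, 108 and 105 in unc-120(st364) larvae, 86.3, 93.2, 90.3 and 101 in fhod-1(tm2363) larvae, and 103, 108, 116 and 114 in wild type. All 4 fhod-1(tm2363) libraries lay below all 4 wild-type libraries, with -0.25 as the log2 fold change (SE 0.14, limma adjusted p = 0.297).

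None of the 5 superoxide dismutases was called. sod-1, the main cytosolic copper and zinc enzyme, stood at 146, 149.9, 170.1 and 169.8 in unc-120(st364) larvae, 168, 171, 197 and 179 in fhod-1(tm2363) larvae, and 143, 161, 174 and 163 in wild type. The groups overlapped, and its log2 fold changes against wild type were -0.01 for unc-120(st364) and 0.16 for fhod-1(tm2363). sod-3, a mitochondrial manganese enzyme and a well-known DAF-16 target, stood at 3.72, 3.59, 3.47 and 3.68 in unc-120(st364) larvae, 2.98, 3.76, 3.21 and 3.63 in fhod-1(tm2363) larvae, and 1.62, 2.16, 2.01 and 3.40 in wild type. The unc-120(st364) libraries lay above all 4 wild-type libraries, and the fhod-1(tm2363) libraries overlapped wild-type replicate 4. Fold changes on the log2 scale were 0.51 for unc-120(st364) and 0.44 for fhod-1(tm2363) against wild type (limma adjusted p = 0.162 and 0.0966). Without wild-type replicate 4 both passed the threshold (0.0162 and 0.0144).

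sod-2, the other mitochondrial enzyme, averaged 5.58 ± 1.35 in unc-120(st364), 4.80 ± 0.703 in fhod-1(tm2363) and 6.27 ± 0.937 in wild type (SD, n = 4 each), and its positions overlap 5 other genes. sod-4, an extracellular enzyme, averaged 18.5 ± 1.97 in unc-120(st364), 19.1 ± 4.26 in fhod-1(tm2363) and 17.2 ± 2.32 in wild type. sod-5, a second cytosolic enzyme, averaged 2.45 ± 1.24 in unc-120(st364), 2.53 ± 1.15 in fhod-1(tm2363) and 1.56 ± 0.706 in wild type, the lowest of the family. For these 3 genes the smallest limma adjusted p in any comparison was 0.257, that of sod-2 in fhod-1(tm2363) against wild type (log2 fold change -0.32).

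The 3 catalase genes stand side by side on the minus strand of chromosome II, in the order ctl-2, ctl-1, ctl-3, and arose by duplication (WBcel235, 14299553 to 14302083, 14303612 to 14306329 and 14307854 to 14310779). ctl-2 encodes the main peroxisomal catalase and ctl-1 a cytosolic one. ctl-1 stood at 27.8, 33.98, 28.9 and 37.9 in fhod-1(tm2363), 17.9, 15.1, 20.97 and 23.3 in unc-120(st364) larvae and 22.9, 20.6, 22.1 and 16.95 in wild type. ctl-3 stood at 20.3, 24.5, 21.1 and 27.9 in fhod-1(tm2363), 12.5, 11.1, 15.8 and 16.4 in unc-120(st364) larvae and 14.9, 13.6, 15.8 and 12.2 in wild type. For both genes the 4 fhod-1(tm2363) libraries were the highest of the 12, and the other 2 groups overlapped.

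Against wild type, fhod-1(tm2363) was higher by 0.61 for ctl-1 (SE 0.16, limma adjusted p = 0.0423) and by 0.69 for ctl-3 (SE 0.16, adjusted p = 0.0225), on the log2 scale. In unc-120(st364) against fhod-1(tm2363) the log2 fold changes were -0.71 and -0.72 (limma adjusted p = 0.0329 and 0.0275). In unc-120(st364) against wild type they were -0.10 and -0.03, with limma adjusted p = 0.9998 and 0.9998.

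The ctl-1 calls were narrow. In fhod-1(tm2363) against wild type, leaving out 1 library ended the call in 10 of 12 cases, all but those of unc-120(st364) replicates 2 and 4, with adjusted p from 0.0505 to 0.140. In unc-120(st364) against fhod-1(tm2363) it was lost without unc-120(st364) replicate 1, 2 or 3, fhod-1(tm2363) replicate 2, 3 or 4, or wild-type replicate 2, with adjusted p from 0.0536 to 0.135. The ctl-3 call against wild type was lost without fhod-1(tm2363) replicate 2 or 4 or wild-type replicate 2 (0.0878, 0.0826 and 0.0641). Between the mutants it was lost without unc-120(st364) replicate 1 or 2 or fhod-1(tm2363) replicate 2, 3 or 4 (0.0510 to 0.114). With every gene above 0 tested, ctl-1 missed the threshold in fhod-1(tm2363) against wild type (adjusted p = 0.0523). A replicate block in the limma fit ended both ctl-1 calls, against wild type (adjusted p = 0.0564) and between the mutants (0.0611). The ctl-3 calls stayed with the block (0.0297 and 0.0464). With the wild type left out of the fit, neither gene was called between the mutants (0.0670 for ctl-1 and 0.0643 for ctl-3).

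ctl-2 stood at 46.6, 52.97, 41.5 and 58.1 in fhod-1(tm2363), 50.5, 39.3, 55.3 and 60.9 in unc-120(st364) larvae and 67.5, 57.7, 58.2 and 48.1 in wild type. The 3 groups overlapped, and the log2 fold change in fhod-1(tm2363) against wild type was -0.21 (SE 0.17, limma adjusted p = 0.479). ctl-2 overlaps Y54G11A.7 on the opposite strand, whose log2 fold change in the same comparison was -0.28 (limma adjusted p = 0.329). The part of this overlap in the ctl-2 values was not tested. The ratio of ctl-1 to ctl-2 within a library was 0.596 to 0.696 in fhod-1(tm2363), 0.354 to 0.384 in unc-120(st364) larvae and 0.339 to 0.380 in wild type. The ratio of ctl-3 to ctl-2 was 0.436 to 0.509 in fhod-1(tm2363), 0.247 to 0.286 in unc-120(st364) larvae and 0.221 to 0.272 in wild type. Both ratios set fhod-1(tm2363) apart from the other groups, with a narrow spread inside each group.

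For the tests 1 was added to each level, as for single genes. On that scale the mean log2 ratio in fhod-1(tm2363) exceeded the wild type by 0.83 for ctl-1 over ctl-2 and by 0.90 for ctl-3 over ctl-2, and for the plain ratios given above the differences were 0.85 and 0.95. On both scales both had a two-sided exact permutation p of 0.0286 (n = 4 each), the smallest that 4 libraries against 4 allow, with the 4 fhod-1(tm2363) libraries above the 4 wild-type libraries. These ratios were chosen after the levels were seen, and after adjustment over the 18 tests of 6 ratios in 3 comparisons the p was 0.0735, so neither passed the correction. With 0.0286 as the smallest possible p, passing would need most of the 18 tests at that value, so this outcome was largely set by the design. The adjustment does not allow for the choice of ratios after the levels were seen. The ratio of ctl-1 to ctl-3 was 1.36 to 1.39 in fhod-1(tm2363), 1.33 to 1.44 in unc-120(st364) larvae and 1.40 to 1.53 in wild type, with an exact permutation p between fhod-1(tm2363) and wild type of 0.0571 with 1 added to the levels and 0.0286 for the plain ratio (n = 4 each, adjusted 0.129 and 0.0735). A ratio within libraries shows unequal change of the 2 genes and does not say which of them changed. Reads that fit more than 1 of the 3 genes cannot be told apart in the deposited values.

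**Figure D4:**
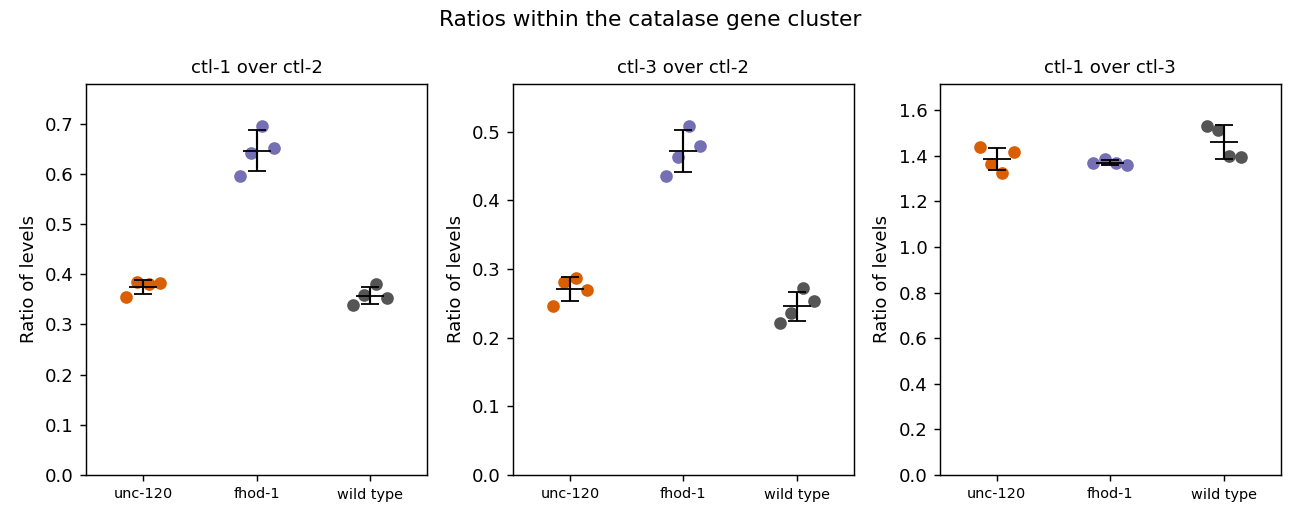
Ratios of catalase gene levels within each library (no unit), for unc-120(st364), fhod-1(tm2363) and wild type, with points for the 4 libraries and bars for mean and SD. The ratios of ctl-1 to ctl-2 and of ctl-3 to ctl-2 lie higher in all 4 fhod-1(tm2363) libraries than in the other 8, and the ratio of ctl-1 to ctl-3 stays between 1.33 and 1.53 in all 12.

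Peroxiredoxins, thioredoxins and their reductases gave no call in any comparison. prdx-2, the abundant cytosolic peroxiredoxin, stood at 377, 257, 405 and 405 in unc-120(st364) larvae, 373, 331, 368 and 381 in fhod-1(tm2363) larvae, and 365, 358, 416 and 309 in wild type, with overlapping groups and log2 fold changes against wild type of -0.02 for unc-120(st364) and 0.01 for fhod-1(tm2363). prdx-3, the mitochondrial one, averaged 192 ± 12.2 in unc-120(st364), 179 ± 17.8 in fhod-1(tm2363) and 184 ± 22.1 in wild type (SD, n = 4 each). prdx-6 stood at 17.5, 21.7, 17.6 and 17.7 in unc-120(st364) larvae, 16.2, 14.6, 16.3 and 15.4 in fhod-1(tm2363) larvae, and 19.4, 19.97, 17.6 and 20.2 in wild type. Its 4 fhod-1(tm2363) libraries lay below every library of the other groups, and the log2 fold change against wild type was -0.29 (SE 0.12, limma adjusted p = 0.179, and 0.0488 after the length correction).

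trx-1, a thioredoxin of a pair of sensory neurons, was close to the lower limit of testing, at 1.08 ± 0.323 in unc-120(st364), 1.08 ± 0.296 in fhod-1(tm2363) and 0.777 ± 0.200 in wild type on average. trx-2, the mitochondrial thioredoxin, averaged 134 ± 43.3 in unc-120(st364), 119 ± 16.2 in fhod-1(tm2363) and 144 ± 17.5 in wild type. trxr-1, a cytosolic thioredoxin reductase that contains selenocysteine, averaged 36.9 ± 8.89 in unc-120(st364), 36.3 ± 4.94 in fhod-1(tm2363) and 38.9 ± 2.15 in wild type, with unc-120(st364) replicate 2 the lowest library at 23.6. trxr-2, the mitochondrial reductase, averaged 6.23 ± 1.11 in unc-120(st364), 5.54 ± 0.699 in fhod-1(tm2363) and 5.49 ± 0.739 in wild type. Among these 4 genes the log2 fold changes against wild type ran between -0.28 and 0.22.

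Of the 6 tested glutathione peroxidases, gpx-3 (chromosome X, 9587942 to 9588879, plus strand) was called. It stood at 19.1, 25.5, 28.3 and 30.8 in fhod-1(tm2363), 7.95, 10.99, 14.4 and 17.003 in unc-120(st364) larvae and 2.18, 13.3, 8.17 and 14.8 in wild type. The fhod-1(tm2363) libraries were the 4 highest of the 12, and wild-type replicate 1 lay far below the rest. Against wild type the log2 fold change in fhod-1(tm2363) was 1.56 (SE 0.40, limma adjusted p = 0.0355). Without wild-type replicate 1 it was 1.06 and still called (adjusted p = 0.0473). The call was lost without fhod-1(tm2363) replicate 2, 3 or 4 or wild-type replicate 3 (adjusted p = 0.105, 0.0836, 0.0961 and 0.0778), and with every gene above 0 tested (0.0747).

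In unc-120(st364) against fhod-1(tm2363) the gpx-3 value was -1.01 (SE 0.40, limma adjusted p = 0.265), and it passed the threshold without wild-type replicate 1 (0.0431), which changes the shared estimate of the spread. gpx-5, also on the X chromosome, stood at 27.005, 24.96, 29.3 and 28.7 in unc-120(st364) larvae, 27.6, 33.4, 32.02 and 36.7 in fhod-1(tm2363) larvae, and 16.1, 27.1, 20.4 and 31.5 in wild type, with a log2 fold change of 0.47 in fhod-1(tm2363) against wild type (limma adjusted p = 0.144). gpx-1, of the phospholipid peroxidase type, averaged 54.3 ± 5.59 in unc-120(st364), 57.2 ± 12.6 in fhod-1(tm2363) and 61.3 ± 7.66 in wild type (SD, n = 4 each), and its log2 fold changes against wild type were -0.17 for unc-120(st364) and -0.12 for fhod-1(tm2363). The other tested members of the thioredoxin and peroxidase families, trx-3, trx-4, gpx-2, gpx-5, gpx-6 and gpx-7, had mean levels between 3.24 (gpx-6) and 69.4 (trx-4). None of these 6 was called, with a smallest limma adjusted p of 0.0899 in any comparison.

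msra-1, which reduces oxidised methionine in proteins, was the most abundant member. It stood at 1639, 1215, 942 and 770.2 in unc-120(st364) larvae, 910.4, 836, 822 and 567 in fhod-1(tm2363) larvae, and 1704, 1222, 1169.8 and 1093 in wild type. All 4 fhod-1(tm2363) libraries lay below all 4 wild-type libraries, and unc-120(st364) overlapped both. The log2 fold change was -0.73 in fhod-1(tm2363) against wild type (SE 0.23, limma adjusted p = 0.0811), short of the threshold, and it passed under 4 of 23 settings, among them the length correction (0.0312).

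The 5 lists of related genes held 80 tested genes, and 3 calls fell in them, 1 in each comparison. They were of cysl-3 in unc-120(st364) against each other group, comparisons that share libraries, and of ftn-1 in fhod-1(tm2363) against wild type. Of all tested genes, 1.2% were called in unc-120(st364) against wild type, 5.23% in fhod-1(tm2363) against wild type and 1.97% between the mutants. Regulators of the SKN-1 pathway (11 tested) and of insulin signalling to DAF-16 (14 tested) had 0 calls and 0 genes at an unadjusted p under 0.05 in each of the 3 limma comparisons. The median log2 fold change of the SKN-1 list was 0.03, 0.18 and -0.11 with unc-120(st364) and then fhod-1(tm2363) set against wild type and last unc-120(st364) against fhod-1(tm2363), and that of the insulin list 0.07, 0.19 and -0.12. In the same order, 8.2%, 22.5% and 12.8% of all tested genes had an unadjusted p under 0.05. Fold changes were above 0 in 7, 10 and 1 of the SKN-1 genes and in 12, 13 and 1 of the insulin genes. Over all tested genes 53.8%, 59.8% and 39.7% were above 0. The mrp and pgp exporters (22 of 23 tested) had 0 calls, with 1, 2 and 1 genes at an unadjusted p under 0.05 in the same order of comparisons.

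Among 18 tested genes of glutathione and sulphur metabolism, cysl-3, of the cysteine synthase family, was higher in unc-120(st364). It stood at 37.7, 39.1, 38.5 and 42.03 in unc-120(st364) larvae, 17.2, 16.7, 18.04 and 17.1 in fhod-1(tm2363) larvae, and 19.5, 22.7, 22.1 and 19.3 in wild type. The unc-120(st364) libraries lay well above the other 8, with a log2 fold change of 0.88 against wild type (SE 0.12, limma adjusted p = 6.26e-04) and 1.14 against fhod-1(tm2363) (adjusted p = 5.16e-05), and both were called under all 23 settings. Among 15 tested oxidases, ferritins and other redox genes, the ferritin gene ftn-1 rose in fhod-1(tm2363), at 9.95, 9.81, 5.59 and 5.15 in unc-120(st364) larvae, 7.56, 9.61, 8.93 and 6.08 in fhod-1(tm2363) larvae, and 2.83, 4.67, 4.17 and 4.71 in wild type. Its fold change against wild type on the log2 scale was 0.83 (SE 0.22, limma adjusted p = 0.0399). That call was lost without fhod-1(tm2363) replicate 1, 2 or 3 or wild-type replicate 1, 2 or 3, with adjusted p from 0.0656 to 0.143, and with every gene above 0 tested (0.0684), upper-quartile scaling (0.0545) or quantile normalization (0.110). unc-120(st364) also lay above the wild type in all 4 libraries, with 0.73 and an adjusted p of 0.182.

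Markers of the main tissues were detected, and none was called. In whole larvae, fewer cells of a type and less RNA per cell cannot be told apart. The 8 lists held 63 tested markers, of which the limma fits called 0 in each comparison. Of all tested genes, 1.2%, 5.23% and 1.97% were called in unc-120(st364) and then fhod-1(tm2363) against wild type and last between the mutants. In the same order, 8, 17 and 12 of the 63 had an unadjusted p under 0.05, against 8.2%, 22.5% and 12.8% of all tested genes. Among those markers, 4, 1 and 5 were of body-wall muscle and 3, 2 and 0 of intestine. Pharynx held 0, 4 and 3 and neurons 1, 5 and 1, and any others were of other lists. No marker was at 0 in all libraries. The summed level of the 10 intestinal markers was 1965 to 3120 units in unc-120(st364), 2529 to 3809 in fhod-1(tm2363) and 2575 to 4884 in wild type. That of the 10 body-wall muscle markers was 2297 to 2528 in unc-120(st364) larvae, 3061 to 3345 in fhod-1(tm2363) and 2812 to 3587 in wild type, with the unc-120(st364) libraries below the other 8.

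The 7 pharyngeal markers summed to 155 to 238 in unc-120(st364) larvae, 220.1 to 332 in fhod-1(tm2363) and 140.1 to 238 in wild type, and the 9 neuronal ones to 299 to 537, 431 to 608 and 350 to 386 in the same groups. Hypodermal markers (8 tested of 10) summed to 1394 to 2346 in unc-120(st364) larvae, 1363 to 1848 in fhod-1(tm2363) and 1219 to 2496 in wild type. The 8 germline markers summed to 40.2 to 88.2, 43.8 to 65.0 and 56.7 to 97.2, and the 10 genes of the molting cycle to 447 to 996, 465 to 780 and 474 to 964, in the same order of groups. Of 6 adult-stage markers, 1 reached the level needed for testing. The part of these tissue markers in the members' values was not tested.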

How the data were processed

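Per the submitters' processing notes, reads were processed with Bowtie2 2.2.5 and Partek on WBcel235. Per the labels' protocols, whole larvae were frozen, RNA was extracted with TRIzol and libraries were made with a stranded mRNA kit. How reads were assigned to genes, and whether strand was used, is not given in the sources used here. The authors deposited 1 table with 1 column per library, taken here as scaled to gene length and to a fixed total, as TPM values are. This is read from the values: every column sums to 638200. After multiplication by exonic length, 38.7% to 46.0% of the low values lay within 0.1 of a whole multiple of 1 step per library. That step was picked from many candidates as the one with the highest share. Evenly spread values would give 20% for a step fixed beforehand, and the chance level for a picked step was not computed. Read totals are unknown, so no counting intervals are given, and precision rests on the 4 libraries of a group. The tests had been planned for normalized counts on the same scale and needed no change for this unit.

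Positions and symbols are those of the deposited table, with exonic lengths and a check of identifiers from Ensembl release 115. The end position was taken as the deposited one minus 1, which gave the release's start and end for 38.54% of the identifiers found in it, against 0.49% as deposited. All 78 members were found in the release.

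Values were analysed as log2(value + 1) for the 12831 genes that reached 1 in 4 or more libraries. The pseudocount makes fold changes of low genes smaller than their true size. limma 3.58.1 in R 4.3.3 (eBayes with trend) fitted 1 mean to each group over the 12 libraries. The procedure was also run on simulated data with noise drawn independently for each gene and library. Some libraries here deviated together across genes, so that run cannot show whether the calls hold under such shared deviations. Python 3.11.15, pandas 2.3.3, numpy 2.4.6 and matplotlib 3.10.9 were used for the rest. The threshold was 0.05 after Benjamini-Hochberg adjustment. Ratios of related genes were tested as differences of log2(value + 1), and also as plain ratios, by two-sided exact permutation of libraries.

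The members and all lists were chosen with earlier results of these data known. Genes were named where called (at most 12 per comparison), by a set of 26 genes chosen for their role, as the 5 most abundant and as the 3 with the largest SD within groups. Alternatives were pseudocounts of 0.5 and 10, a minimum of 10, every gene above 0, upper-quartile scaling, quantile normalization, a loess correction for exonic length (span 0.5), a fit of only the groups compared, no trend, a replicate block with and without the length correction, and each library left out. The ratios and their alternatives were added after the data were seen. No sequences are shown.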

Additional observations from a re-analysis of the deposited data

Results flagged for a closer look

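In 6 of 99 groups of 4 libraries examined, 1 per named gene and group, the highest or lowest library stood farther from the rest than Dixon's 95% critical value allows. Chance flags about 1 in 20 such groups.

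Of these flags, those of trxr-1 and prdx-6 fell on unc-120(st364) replicate 2. There trxr-1 was 23.6 units, with 40.7 to 42.2 in the other 3 libraries, and prdx-6 was 21.7, with 17.5 to 17.7 in the others. Also in unc-120(st364), gst-42 was 42.3 in replicate 1, with 35.3 to 35.9 in the others. In wild type, gsto-3 was 4.20 in replicate 2, with 3.31 to 3.44 in the others. gpx-1 was 72.7 in wild-type replicate 1, with 56.2 to 58.5 in the others. gst-44 was 0.959 in wild-type replicate 4, with 0.603 to 0.625 in the others, all below the level used for testing. Of these genes gsto-3 was called, and its difference between the mutants was called without any single library.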

How the results depend on the processing

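The read depth is unknown, so the precision of low genes cannot be stated beyond the spread of 4 libraries. No value changed its sign while called, and the median log2 fold changes of the members moved by less than the spread between replicates in every setting. The cause of each change below was not tested. Percentages in brackets are the share of all tested genes called in the same setting. The count of members called in fhod-1(tm2363) against wild type, 5 (5.23%), was 3 with every gene above 0 tested (3.24%), 12 with the length correction (14.2%), 8 with the replicate block (7.38%), 23 with the replicate block and length correction together (20.2%), and 1 to 7 with single libraries left out (1.76% to 7.68%). The count in unc-120(st364) against fhod-1(tm2363), also 5 (1.97%), was 3 with a minimum of 10 (1.44%, with gst-3 and gsto-3 too low to enter), 9 with the length correction (3.99%), 11 with the block and length correction (6.75%), 3 with only the groups compared (1.87%), and 2 to 6 with single libraries left out (1.09% to 2.28%). The count in unc-120(st364) against wild type, 0 (1.2%), was 1 with the length correction (2.07%), 6 with the block and length correction (3.15%), and 0 to 1 with single libraries left out (0.822% to 1.28%).

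Over all genes, the length correction gave 1814, 511 and 265 calls in fhod-1(tm2363) against wild type, unc-120(st364) against fhod-1(tm2363) and unc-120(st364) against wild type, where 671, 253 and 154 were called without it. The block with it gave 2590, 863 and 403. With a minimum of 10 the calls were 217, 85 and 43, of 5921 genes. Single libraries left out gave 224 to 982, 138 to 292 and 105 to 164 calls. Replicate numbers go with letters in the library titles, K to N in every group, and no label says what they share. Replicate 1 libraries deviated from their group means together, with correlations across genes of 0.467, 0.585 and 0.610 between the groups. For replicates 2, 3 and 4 the values ran from -0.262 to 0.013, -0.651 to 0.677 and -0.469 to 0.806, so the numbers as a whole were not taken as pairs, and 9 of 24 library matches were best with the same number. With the replicate block, ctl-1 was not called in fhod-1(tm2363) against wild type (limma adjusted p = 0.0564) or in unc-120(st364) against fhod-1(tm2363) (0.0611), and msra-1 was called in fhod-1(tm2363) against wild type (0.0151).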

Other observations

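Replicate 1 was the lowest of 4 libraries in all 3 groups for 14 of 68 tested members (20.6%), against 5.09% of all tested genes. These were gst-5, gst-7, gst-8, gst-15, gst-24, gst-30, gst-31, gst-33, gst-37, gst-39, gsto-2, sod-1, sod-5 and gpx-3. Replicate 1 was the highest in all 3 groups for 8 members (11.8%), against 7.75% of all tested genes, and these were gst-4, gst-10, gst-13, gst-26, gst-42, sod-2, gpx-7 and msra-1. These counts describe the 12 libraries, and genes within a library are not independent of each other. gst-39 shows the first pattern, at 53.2, 79.1, 65.3 and 64.4 in unc-120(st364) larvae, 51.6, 106, 93.6 and 67.4 in fhod-1(tm2363) larvae, and 40.9, 52.8, 54.7 and 63.2 in wild type. gst-13 shows the second, at 146, 130.4, 99.01 and 108 in unc-120(st364) larvae, 110.2, 91.3, 93.2 and 92.3 in fhod-1(tm2363) larvae, and 153, 91.5, 88.9 and 122 in wild type.

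Some members that missed the threshold in fhod-1(tm2363) against wild type came close to it. gst-20 stood at 25.7, 36.97, 33.3 and 37.3 in unc-120(st364) larvae, 35.9, 33.5, 44.7 and 41.5 in fhod-1(tm2363) larvae, and 14.3, 29.4, 21.1 and 28.8 in wild type. The fhod-1(tm2363) libraries lay above all 4 wild-type libraries (log2 fold change 0.75, SE 0.21, limma adjusted p = 0.0516). gst-14 stood at 14.2, 13.4, 9.59 and 11.4 in unc-120(st364) larvae, 10.7, 11.2, 11.3 and 11.3 in fhod-1(tm2363) larvae, and 5.40, 8.82, 7.93 and 8.96 in wild type, with both mutants above the wild type in all libraries and adjusted p of 0.134 for unc-120(st364) and 0.0957 for fhod-1(tm2363). gst-24 had the highest fold change of the members in unc-120(st364) against wild type, 0.82 on the log2 scale (SE 0.25, limma adjusted p = 0.214), with 1 of 4 unc-120(st364) libraries inside the wild-type range.

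The ratio of gpx-3 to gpx-5 was 0.692 to 0.883 in fhod-1(tm2363), 0.295 to 0.593 in unc-120(st364) larvae and 0.136 to 0.490 in wild type, with an exact permutation p of 0.0286 between fhod-1(tm2363) and wild type (n = 4 each, with or without 1 added to the levels, and 0.0735 after adjustment over the 18 ratio tests). The ratio of gst-26 to gst-27, which lie in 1 cluster, was 0.634 to 0.733 in fhod-1(tm2363), 0.685 to 0.879 in unc-120(st364) larvae and 0.733 to 0.881 in wild type. fhod-1(tm2363) replicate 1 and wild-type replicate 3 met at 0.733, with the fhod-1(tm2363) library just above. The exact permutation p between fhod-1(tm2363) and wild type was 0.0286 with 1 added to the levels and 0.0571 for the plain ratio (n = 4 each), and 0.0735 and 0.129 after the same adjustment.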
